A study of Mus musculus with 7 samples.

Results

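The circadian clock genes of J558 tumours were taken as 10 genes, namely the activators Arntl (also called Bmal1) and Clock, the repressors Per1, Per2, Per3, Cry1 and Cry2, the nuclear receptors Nr1d1 and Nr1d2, and the output gene Dbp. Every probe annotated to one of these symbols was used, which gave 15 probes of the 23978 used on the array and 10 of the 14739 genes named there. The members were chosen by name and not by their signals. Of the 15 probes, 9 probes of 8 genes passed the filter on dim signals described below and entered the test, while the other 6 probes, among them the single probes of Per3 and Cry1, did not.

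The tumours grew from J558 cells, a mouse myeloma line of malignant plasma cells that secretes IgA, injected under the skin of the neck of male BALB/c mice fed standard chow. The OPP group (n = 3) drank oil palm phenolics, an aqueous extract of palm fruit, at 1500 ppm gallic acid equivalents without restriction. The control group (n = 4) drank distilled water. Both groups carried the same inoculated line and were sampled 4 weeks after inoculation, with an age of 10 weeks on the labels. Per the methods, 4 RNA samples per group were chosen for their integrity and outlier arrays were then removed by clustering. The host animals keep their own clocks, so a tumour holds the clocks of its stroma as well as those of the myeloma cells. The time of day at which tumours were taken is not given in the sources used here.

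In the mammalian clock, the proteins of Arntl and Clock bind together to E-box sequences and switch on the Per and Cry genes, whose proteins return to the nucleus and block them. Nr1d1 and Nr1d2, which encode REV-ERB alpha and beta, are switched on through the same E-boxes and repress Arntl through ROR elements, so that Arntl peaks when Nr1d1 is low. Dbp, an E-box target in its own right, encodes a transcription factor that acts on D-boxes of other clock and output genes. A single sampling time shows levels at that moment, not the amplitude or the phase of a rhythm.

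Sequence near the start of 3 members is shown to give examples of matches to E-box, D-box and ROR elements. The 3 were picked with the array values known, Per1 for its p and Arntl and Nr1d1 for a pattern described below. A link between these matches and the signals was not tested. The sequences are from RefSeq, build GRCm38.p6. The 250 bases before the start of Per1 (chr11:69098699-69098948, + strand) hold in capitals the E-box CACGTG, which begins at -166 from the start, and the D-box TTATGCAA, which begins at -24. The same stretch of Nr1d1 (chr11:98775378-98775627, - strand) holds in capitals AACGTG, an E-box variant read on its other strand, at -28. For Arntl a stretch of 29 bases (chr7:113207530-113207558, + strand) shows the ROR element TAGGTCA in capitals, which begins 30 bases after the second of the start sites listed.
Per1: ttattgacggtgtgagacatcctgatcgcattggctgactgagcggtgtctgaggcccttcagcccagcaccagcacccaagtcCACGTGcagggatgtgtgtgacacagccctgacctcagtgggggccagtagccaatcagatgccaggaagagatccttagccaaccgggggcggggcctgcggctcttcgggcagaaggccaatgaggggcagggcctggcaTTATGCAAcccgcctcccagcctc
Nr1d1: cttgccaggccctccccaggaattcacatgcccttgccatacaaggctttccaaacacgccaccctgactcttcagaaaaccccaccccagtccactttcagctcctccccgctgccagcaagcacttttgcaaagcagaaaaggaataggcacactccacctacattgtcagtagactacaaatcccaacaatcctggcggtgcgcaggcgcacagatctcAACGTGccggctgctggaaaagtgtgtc
Arntl: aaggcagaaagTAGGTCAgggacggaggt

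Windows from 250 bases before to 50 bases after the start were searched on both strands for the E-box CACGTG, the variant CACGTT, the D-boxes TTATGTAA, TTACGTAA and TTATGCAA, and the ROR elements TAGGTCA and TGGGTCA. The table held 13 such windows for 9 of the members and 32851 in all. The E-box was found in 2 of the 13 windows, those of Cry1 and Per1, against 7.15% of all windows. The variant was in 3, those of Cry2, Cry1 and Nr1d1, against 4.68% of all. D-boxes were in the windows of Per3 and Per1, against 1.78% of all, and a ROR element was in 1 window of Arntl, against 6.45% of all. Of the motifs searched, CACGTG and CACGTT share their first 5 letters but cannot match at the same bases of 1 strand. These matches are a description of the windows and were not set against the array signals.

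The arrays were first checked against their labels. Of the 8 plasma cell markers, 7 were above background on every array, while Mzb1 was below the noise limit on OPP replicate 3, at 9.0, and otherwise between 35.1 and 111.7. Xbp1, the factor that drives antibody secretion, averaged 18377 ± 2723 in OPP tumours and 17520 ± 1454 in control tumours (SD, n = 3 and 4). All 13 tested skeletal muscle markers were lower in OPP tumours at an unadjusted p under 0.05, against 9.36% of tested probes in either direction. Their groups did not overlap, against 9.7% of all tested probes, and none had an adjusted p under 0.05. Except for Acta1, these markers entered the test only through the control arrays, where they were high. The filter thus favoured lower OPP values, and the shares of all tested probes are not a like comparison. The marker Mb was not tested, and its groups overlapped. OPP replicate 3 and control replicate 1 held the lowest sums of 5 T and NK cell markers and of 5 macrophage markers, and both were left out together as an alternative setting. Correlations between arrays ran from 0.954 to 0.983 between the groups, from 0.970 to 0.982 within OPP and from 0.972 to 0.987 within control. The labels give no batch, and they do not say that replicates came from separate animals, so that p-values here measure only the spread between these samples.

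Signals are intensities after background subtraction and rank invariant normalisation, on a linear scale on which noise scatters around 0. A signal counted as above background when it exceeded the upper limit of the noise of its array, which lay between 20.6 and 26.6, and a probe was tested when it did so on every array of at least 1 group. Differences are log2 changes, OPP minus control, with standard errors (SE), 95% intervals and p-values from limma, adjusted by Benjamini-Hochberg over 10371 tested probes. Levels of different probes cannot be compared with each other, since probes differ in how strongly they bind.

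Per3 and Cry1 were not above background on any array. The Per3 probe read -14.5, -7.8 and -4.3 in OPP tumours and 3.9, -3.6, -10.3 and 9.1 in control tumours. The Cry1 probe was below 0 on all 7 arrays. Of the genes with several probes, probes 2 and 3 of Clock and probe 2 of Nr1d1 and of Per2 were also at background, although their first probes were measured. The 42 values of these 6 probes lay between -21.8 and 14.8, and 0 of them exceeded the limit of its array. For these probes there is a bound and no fold change, and a level below the limit of this array is not an absence of the transcript.

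**Figure D1:**
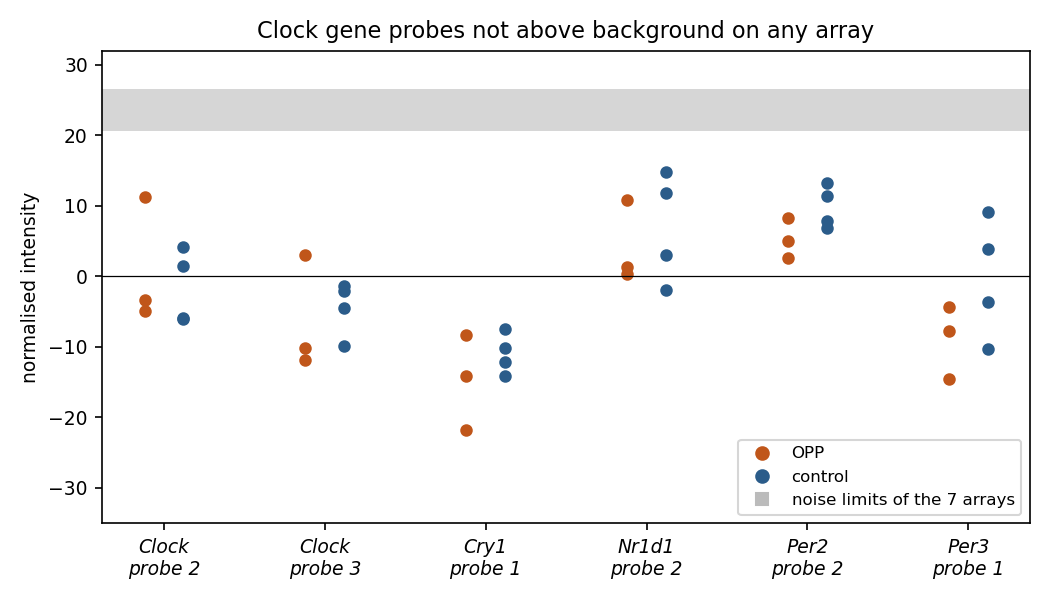
Normalised intensity of the 6 clock gene probes that were not above background, with a point per array, OPP left and control right of each probe. The shaded band covers the noise limits of the 7 arrays, from 20.6 to 26.6, and every point lies below it.

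No clock gene passed the test between OPP and control tumours. Of the 9 tested probes, 6 were above 0 and 3 below 0 in OPP minus control, 0 had an unadjusted p under 0.05 and 0 an adjusted p under 0.05, against 9.36% and 0% of all tested probes. In 0 of the 9 did the groups fail to overlap, against 9.7% of all tested probes. The median log2 change of the 9 probes was 0.04, against 0.01 over all tested probes, and the median size of the change was 0.11, against 0.13. Adjusted p-values of the members ran from 0.582 to 0.983. The lowest bound of any member's interval was -0.78, for Nr1d1, and the highest was 0.60, for the first Nr1d2 probe. The width of the interval differed between probes, so these bounds are not a limit for every member. For Per2 the interval ran from -0.13 to 0.36. In an RNA extract of whole tumour, fewer cells of a type and less RNA per cell cannot be told apart.

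Arntl, the first of the activators, encodes BMAL1, the partner without which the loop does not turn. It read 214.7, 202.7 and 212.3 in OPP tumours, and 205.9, 177.9, 225.4 and 176.3 in control tumours. The OPP values lay close together inside the wider control range. The means were 210 ± 6.35 in OPP and 196 ± 23.6 in control tumours (SD), a log2 change of 0.10 (SE 0.11, 95% interval -0.16 to 0.37, limma adjusted p = 0.790).

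Clock encodes the partner of BMAL1 in the activator. Its first probe read 339.0, 363.4 and 388.8 in OPP tumours, and 382.6, 371.1, 338.1 and 440.4 in control tumours. The control arrays included both the lowest and the highest value. The means were 364 ± 24.9 in OPP and 383 ± 42.6 in control tumours, a log2 change of -0.07 (SE 0.11, -0.34 to 0.20, limma adjusted p = 0.855).

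Among the repressors, Per1 had the lowest p of the members. Per1 is a Period gene that answers quickly to glucocorticoid and cAMP signals as well as to E-boxes. It read 86.5, 107.9 and 116.9 in OPP tumours, and 86.7, 95.4, 84.7 and 82.3 in control tumours. OPP replicates 2 and 3 lay above every control array, whereas OPP replicate 1 lay inside the control range. The means were 104 ± 15.6 in OPP and 87.3 ± 5.71 in control tumours, a log2 change of 0.24 (SE 0.13, -0.05 to 0.53), with an unadjusted p of 0.093 and an adjusted p of 0.582 in limma. A smaller p was found for 16.0% of all tested probes. An exact two-sided permutation test over the 35 divisions of the arrays gave p = 0.171, where the smallest p it allows is 0.0571. Leaving out OPP replicate 1 raised the log2 change to 0.37 (unadjusted p = 0.014, adjusted p = 0.440 in limma), and leaving out OPP replicate 3 and control replicate 1 together gave 0.15.

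Per2 encodes the Period protein that binds the Cryptochromes and carries them to the nucleus. Its first probe read 526.5, 452.0 and 530.6 in OPP tumours, and 438.5, 468.3, 441.4 and 509.3 in control tumours. A pair of OPP arrays lay above all the control arrays and OPP replicate 2 among them. The means were 503 ± 44.2 in OPP and 464 ± 32.8 in control tumours, a log2 change of 0.11 (SE 0.10, -0.13 to 0.36, limma adjusted p = 0.750). Among the tested members Per2 had the smallest ratio of highest to lowest array, 1.21.

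Cry2 encodes a Cryptochrome, the part of the repressor complex that stops the activators directly. It read 136.1, 131.2 and 181.6 in OPP tumours, and 170.5, 130.8, 137.4 and 138.8 in control tumours. An array of each group stood high, OPP replicate 3 and control replicate 1, and the other 5 arrays lay between 130.8 and 138.8. The means were 150 ± 27.8 in OPP and 144 ± 17.8 in control tumours, a log2 change of 0.04 (SE 0.15, -0.31 to 0.40, limma adjusted p = 0.939), and without those arrays the change was -0.02.

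The arrays with high Cry2 were those with the lowest summed marker signals of infiltrating cells. The summed signal of the 5 tested T and NK cell markers was 1974, 1674 and 716.5 in OPP tumours, and 1016, 2936, 2373 and 2643 in control tumours. The summed signal of the 5 tested macrophage markers was 8502, 7016 and 5770 in OPP tumours, and 4844, 10999, 8685 and 10572 in control tumours. OPP replicate 3 and control replicate 1 were thus lowest in both sums. Among the tested markers Lyz2 was the exception, at 3196.2 on OPP replicate 3 against 2332.5 and 2803.3 on the other OPP arrays. Cd2, at 676.5 on OPP replicate 3 and 906.1 on control replicate 1, made up most of the T and NK sum there. Of the T and NK cell list, 9 of 10 genes had a probe, and Cd4, Gzma and Gzmb were not above background on any array. Of the 10 tested markers of these lists, 0 had an unadjusted limma p under 0.05 between the groups, against 9.36% of all tested probes, too few markers to read that difference. The part of these cells in the Cry2 signal was not tested.

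Nr1d1 had the widest spread of the tested members. Its first probe read 34.5, 53.3 and 28.5 in OPP tumours, and 31.3, 52.3, 32.4 and 52.3 in control tumours. The values fell at 2 levels, with OPP replicate 2 and control replicates 2 and 4 between 52.3 and 53.3 and the other 4 arrays between 28.5 and 34.5, so that both groups held both levels. The means were 38.8 ± 12.9 in OPP and 42.1 ± 11.8 in control tumours, a log2 change of -0.13 (SE 0.28, -0.78 to 0.53, limma adjusted p = 0.898). The SD of its log2 signal within groups was 0.43, and only 10.6% of tested probes had a larger one. The lower level lies just above the noise limits, where noise takes a larger share of the signal.

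Nr1d2 was measured by a pair of probes. The first read 389.4, 483.3 and 655.0 in OPP tumours, and 466.4, 410.9, 400.4 and 486.8 in control tumours. OPP tumours held both the lowest and the highest value, the highest on replicate 3. The means were 509 ± 135 in OPP and 441 ± 42.0 in control tumours, a log2 change of 0.18 (SE 0.18, -0.24 to 0.60, limma adjusted p = 0.776), which was -0.02 without OPP replicate 3. The second probe averaged 120 ± 20.5 in OPP and 119 ± 23.8 in control tumours, with a change of 0.02 (SE 0.19, -0.42 to 0.46, adjusted p = 0.983). Across the 7 arrays the signals of the 2 probes had a Pearson r of 0.44 and a Spearman rho of 0.46 (exact permutation p = 0.315 and 0.302).

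Dbp, the output gene, is among the most strongly cycling transcripts of mouse tissues. It read 330.6, 355.8 and 388.5 in OPP tumours, and 366.0, 356.9, 448.7 and 450.3 in control tumours. Control replicates 3 and 4 lay above all other arrays, and the remaining 5 overlapped. The means were 358 ± 29.0 in OPP and 405 ± 51.0 in control tumours, a log2 change of -0.17 (SE 0.13, -0.47 to 0.12, limma adjusted p = 0.687, exact permutation p = 0.229).

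The arrays with the highest Dbp also had the highest summed marker signals of muscle and fat. The summed signal of the 13 tested skeletal muscle markers was 153, 5247 and 762 in OPP tumours, and 7321, 10161, 19510 and 32510 in control tumours. The summed signal of the 5 tested adipocyte markers was 847, 921 and 1109 in OPP tumours, and 969, 1775, 3319 and 3445 in control tumours. Both sums were highest on control replicates 3 and 4. On the other arrays the order differed. Dbp was higher on OPP replicate 3, at 388.5, than on control replicates 1 and 2, at 366.0 and 356.9, which had higher muscle sums. Of 17 muscle genes listed 14 had a probe, and of 9 adipocyte genes 8 had one, with Plin1 and Retn not above background on any array. The part of muscle and fat in the Dbp signal was not tested.

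**Figure D2:**
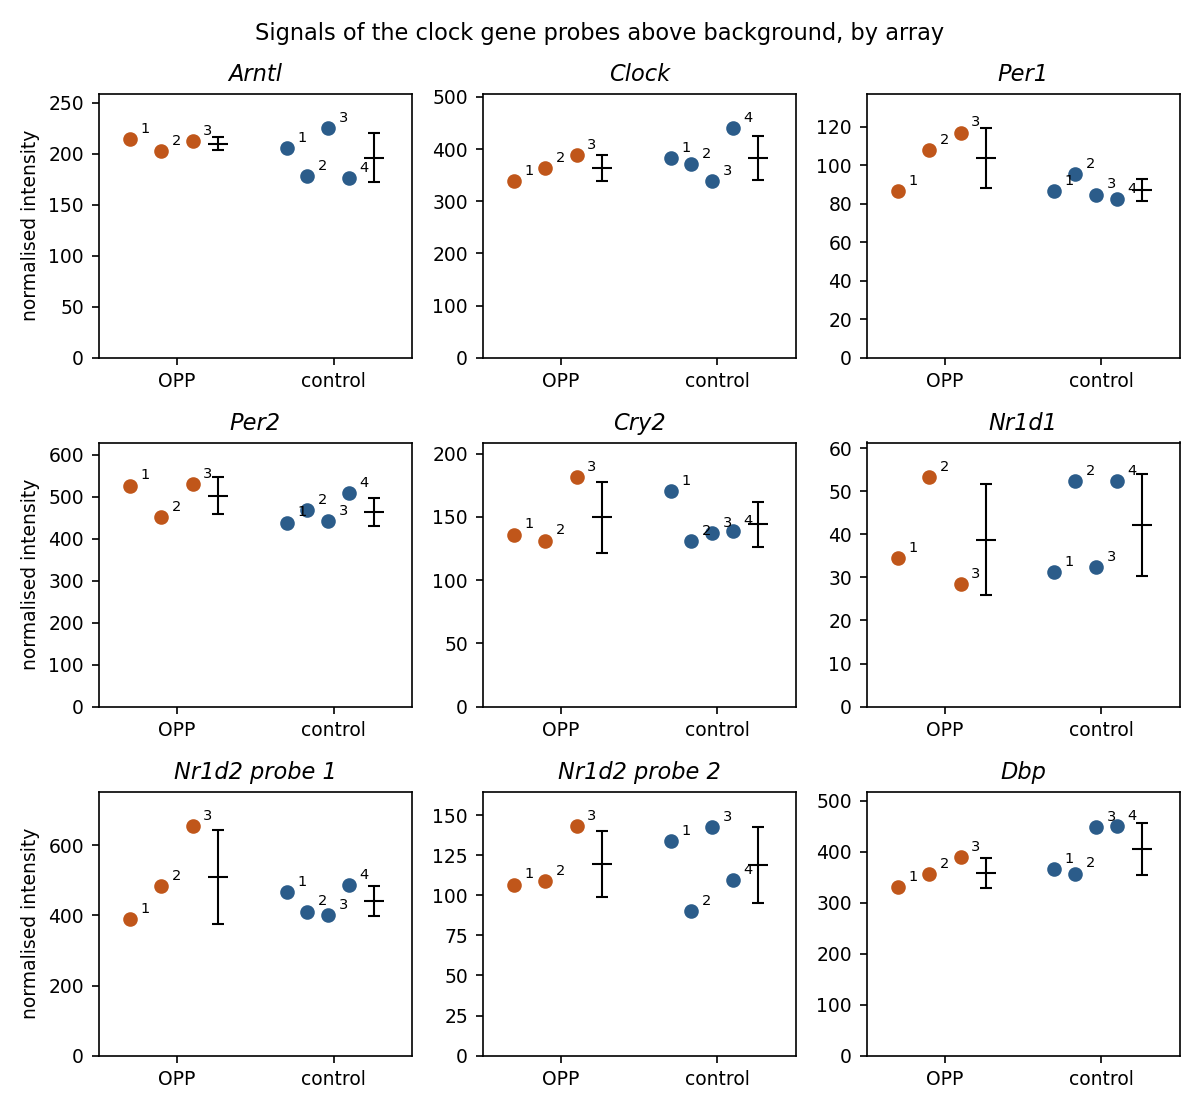
Normalised intensity of each tested clock gene probe by array, with a panel per probe, OPP arrays (n = 3) left of control arrays (n = 4), replicate numbers beside the points, and the mean with its SD at the side. The groups overlap in every panel, Nr1d1 lies at 2 levels within both groups, and OPP replicates 2 and 3 lie above the controls for Per1.

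The median SD of log2 signal within groups was 0.16 over the 9 probes, against 0.19 over all tested probes, and 5 of the 9 were below that value. The ratio of the highest to the lowest array ran from 1.21 for Per2 to 1.87 for Nr1d1.

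Arntl was lower on the arrays at the upper of the 2 levels of Nr1d1. In OPP this rests on replicate 2 alone, where Arntl read 202.7 against 214.7 and 212.3. The levels come from the first Nr1d1 probe, whose lower level is close to the noise limits, and the second probe was at background. The 3 arrays with the highest Nr1d1 signal, OPP replicate 2 and control replicates 2 and 4, were those with the 3 lowest Arntl signals, 202.7, 177.9 and 176.3. On the other 4 arrays, OPP replicates 1 and 3 and control replicates 1 and 3, Nr1d1 lay between 28.5 and 34.5 and Arntl between 205.9 and 225.4. Because Nr1d1 fell into 2 separate levels, no pooled r is given for this pair, although it is counted in the test of all pairs below. Neither level holds enough arrays to test the relation within it. Within the lower level the array of each group with more Nr1d1, OPP replicate 1 and control replicate 3, also had more Arntl. The pattern was singled out after its values were seen.

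**Figure D3:**
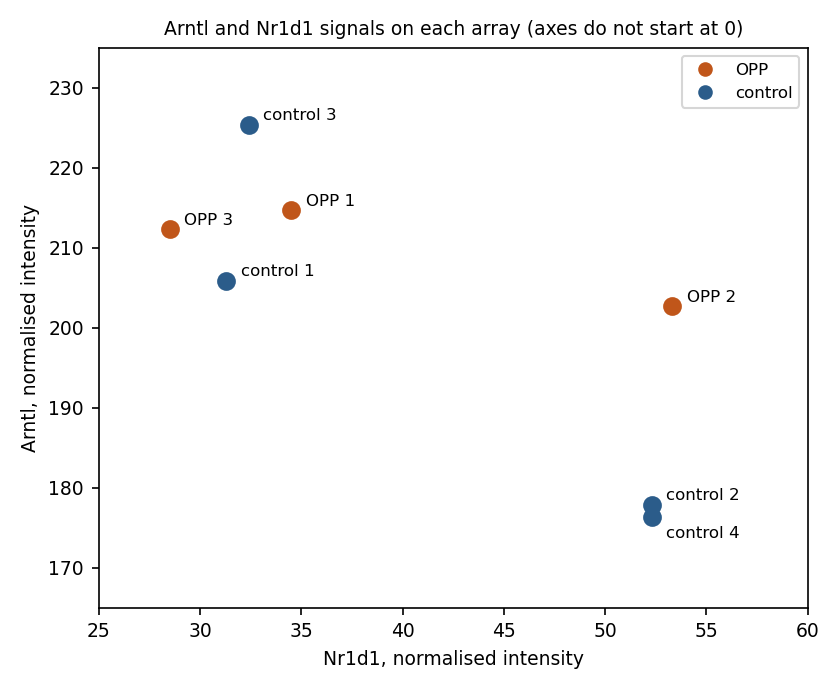
Normalised intensity of Arntl (vertical axis) against that of Nr1d1 (horizontal axis), with a point per array and the group in colour (OPP, n = 3, and control, n = 4). The 3 arrays with Nr1d1 between 52.3 and 53.3 have the 3 lowest Arntl signals, from 176.3 to 202.7, and neither axis starts at 0.

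Each pair of members was then compared over the 7 arrays, to describe which genes of the loop varied together. Of the 28 pairs of the 8 tested genes, 15 had a Pearson r above 0 and 13 below 0. With exact permutation over pairings 1 pair, Arntl and Nr1d1, had an unadjusted p under 0.05, and 0 did after Benjamini-Hochberg adjustment over the 28 pairs, where the smallest adjusted p was 0.412. By Spearman rho, 2 pairs passed unadjusted, Clock with Nr1d2 and Cry2 with Nr1d1, and 0 adjusted, the smallest adjusted p being 0.556. For the pairs with Nr1d1 these counts set its 2 levels against each other.

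Of the pairs without Nr1d1, the 3 with the largest r did not pass the adjusted test. For 2 of the 3, the r was much lower without OPP replicate 3. Arntl and Clock, the partners of the activator, ran in opposite directions with an r of -0.70 and a rho of -0.68 (exact permutation p = 0.0736 and 0.110, adjusted 0.412 and 0.847). The r was -0.62 without the 2 arrays farthest from the median Arntl signal and -0.67 with group means removed, and it ran from -0.89 to -0.44 when single arrays were left out. Cry2 and Nr1d2 had an r of 0.73 and a rho of 0.54 (exact permutation p = 0.0577 and 0.236, adjusted 0.412 and 0.847). The r became -0.04 without the 2 arrays farthest from the median Cry2 signal, OPP replicate 3 and control replicate 1. The remaining Cry2 values lay between 130.8 and 138.8, which leaves little spread for an r. It was 0.29 without OPP replicate 3 alone and 0.70 to 0.85 without any other single array. Nr1d2 and Per1 had an r of 0.71 and a rho of 0.39 (exact permutation p = 0.0647 and 0.396, adjusted 0.412 and 0.923). Their r became 0.16 without the 2 arrays farthest from the median Nr1d2 signal. It was 0.245 without OPP replicate 3 alone and 0.67 to 0.85 without any other single array. Without control replicate 3, Clock and Dbp had an r of 0.986 (exact permutation p = 0.00139, adjusted p = 0.0389), against 0.42 over all 7 arrays (p = 0.352, adjusted p = 0.990).

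None of the other genes around the loop passed the adjusted test either. Of 33 further genes of the clock pathway, 27 had a probe and 20 were tested, 7 with a log2 change above 0 and 13 below 0, and their median change was -0.07, against 0.01 over all tested probes. An unadjusted limma p under 0.05 was reached by 1 gene in each direction, Sirt1 higher and Nono lower, against 9.36% of all tested probes, and an adjusted p under 0.05 by 0 genes. The groups did not overlap for 1 of the 20, against 9.7% of all tested probes. Sirt1, a deacetylase that acts on BMAL1 and PER2, read 213.2, 212.5 and 194.0 in OPP tumours, and 161.2, 195.8, 172.1 and 141.8 in control tumours. The OPP values were high but overlapped with control replicate 2, and the log2 change was 0.31 (SE 0.12, limma adjusted p = 0.509). Nono, an RNA-binding protein found in PER complexes, read 871.4, 783.0 and 866.7 in OPP tumours, and 927.4, 1030.2, 964.8 and 982.8 in control tumours. Its groups did not overlap, with every OPP array lower, and the log2 change was -0.22 (SE 0.09, limma adjusted p = 0.514).

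Of the close relatives and competitors of the members, Bhlhe40, Bhlhe41, Tef and Nfil3 were tested, and each overlapped between the groups. Bhlhe40 and Bhlhe41, which compete for E-boxes, lay on opposite sides of 0. Bhlhe40 averaged 204 ± 38.7 in OPP and 274 ± 69.5 in control tumours, a log2 change of -0.41 (SE 0.25, limma adjusted p = 0.638). Bhlhe41 averaged 76.1 ± 9.77 in OPP and 58.1 ± 13.9 in control tumours, a log2 change of 0.42 (SE 0.21, limma adjusted p = 0.574). Tef, a relative of Dbp with the same D-box target, averaged 701 ± 27.3 in OPP and 736 ± 53.9 in control tumours, a log2 change of -0.07 (adjusted p = 0.830). Nfil3, which represses through D-boxes, averaged 555 ± 252 in OPP and 529 ± 55.5 in control tumours, a log2 change of -0.01 (adjusted p = 0.990), with OPP replicate 1 at 843.8 above all other arrays. Hlf, another gene of the Dbp family, and Npas2, which can stand in for Clock, were not above background on any array. Rora, an activator that competes with the REV-ERBs for ROR elements, was above background on 1 of 3 OPP and 3 of 4 control arrays and was not tested.

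Inputs that act on Per genes from outside the loop were examined with 15 genes that carry or answer to glucocorticoid or cAMP signals. Of these 13 were tested, 8 with a change above 0 and 5 below 0, and 1 had an unadjusted limma p under 0.05, against 9.36% of all tested probes, with 0 past the adjusted threshold. This was Tsc22d3, which encodes the glucocorticoid-induced leucine zipper and read 118.8, 100 and 80.6 in OPP tumours, against 67.9, 51.1, 44.9 and 69.4 in control tumours. The groups did not overlap, as for 9.7% of all tested probes, and the log2 change was 0.78 (SE 0.20, limma adjusted p = 0.348). Of the same list, the lowest p after Tsc22d3 were those of Klf9, Sik1 and Sgk1. Klf9 and Sgk1 lay below 0, with log2 changes of -0.28 and -0.37 (limma adjusted p = 0.562 and 0.613). Sik1, which entered the test only through its OPP arrays, was at 0.54 (limma adjusted p = 0.606). Fkbp5, another glucocorticoid target, averaged 327 ± 22.7 in OPP and 319 ± 28.2 in control tumours, a log2 change of 0.04 (limma adjusted p = 0.920).

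**Figure D4:**
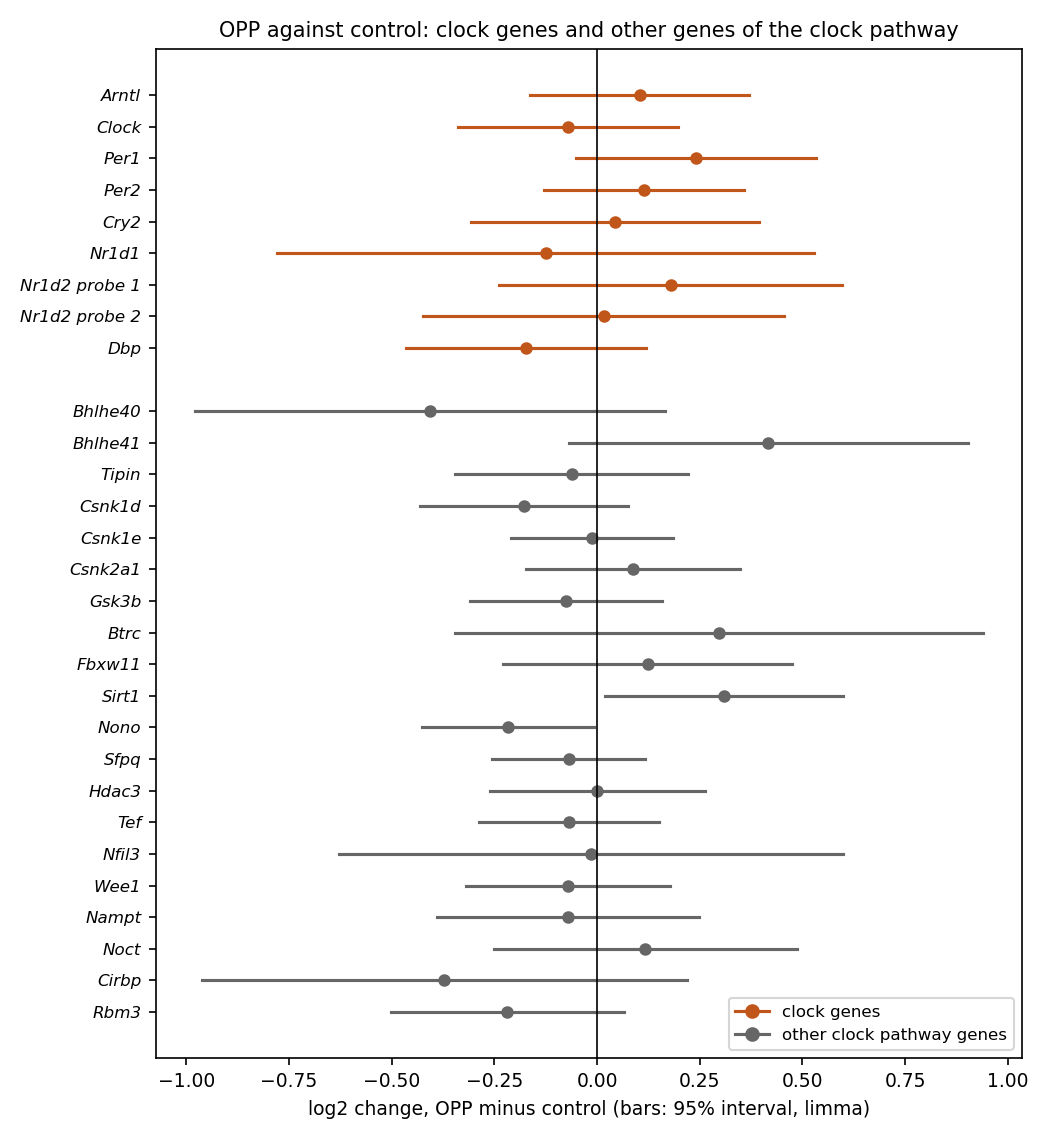
Log2 change, OPP minus control, of the 9 tested clock gene probes (above) and of the 20 other tested clock pathway genes (below), with 95% intervals from limma. The intervals of all 9 clock gene probes cross 0, and of the other genes those of Sirt1 and Nono do not.

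For Dbp, Per2 and Arntl, an output gene, a repressor and an activator, the genes whose signals tracked the member most closely over the 7 arrays are given as a description, since a search over 8869 tested probes with a gene name finds high values by its size. Those of Dbp were Ces1d (r = 0.97), Haus7 (0.97) and Lmbrd1 (0.95), for Per2 they were Dph2 (0.98), Cdyl (0.97) and Trappc2 (0.95), and for Arntl they were Rars (0.98), Usp15 (0.95) and Hddc3 (0.95). The number of named genes with an r of at least 0.9 was 22 for Dbp, 28 for Per2 and 21 for Arntl.

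**Figure D5:**
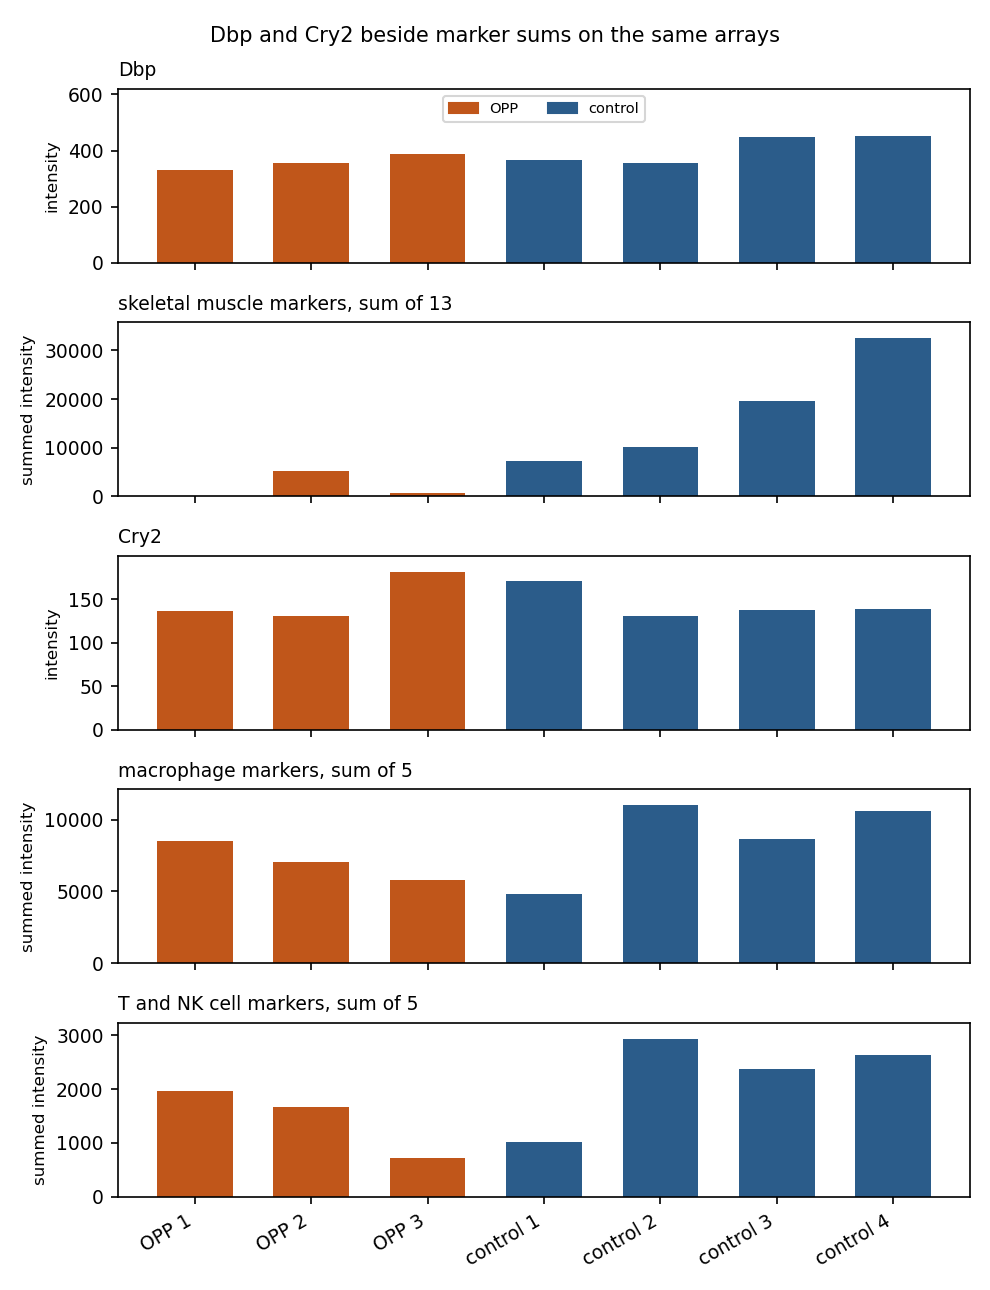
Normalised intensity of Dbp and Cry2 and summed intensity of the skeletal muscle, macrophage and T and NK cell markers on each array, OPP arrays left of control arrays, all bars starting at 0. Dbp is highest on control replicates 3 and 4 (448.7 and 450.3), which also have the highest muscle sums, and Cry2 is highest on OPP replicate 3 and control replicate 1 (181.6 and 170.5), which have the lowest macrophage and T and NK cell sums.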

How the data were processed

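Total RNA of 7 tumour samples was measured on 7 Illumina MouseRef-8 version 1 BeadChip arrays, and the labels gave the groups. The deposited intensities were extracted by the authors with BeadStudio (version 1.5.1.3 in the submitters' processing notes), with background subtracted and rank invariant normalisation, on a linear scale. A table of signals before normalisation was not used, since its 14 columns could not be tied to samples by name. The array listed 24048 probes. After dropping 4 bacterial controls and 66 probes lacking values, 23978 were used, of which 19343 had 1 gene symbol. Noise was taken from the values at or below 0, mirrored, and 10653 to 11268 probes per array exceeded the limit. Values under 10 were set to 10 and log2 was taken. The methods' Illumina error model was not used here and limma 3.58.1 (R 4.3.3) stood for it, in a fit of all 7 arrays without covariates, checked on simulated data. The number of arrays limits the precision. Where a gene had several probes, each was given for the members, and the brightest tested one stood for the gene in pairs and other lists. Exact permutation tests were run with scipy 1.17.1. All members were named, with the pathway, input and marker genes picked by p and brightness. Fkbp5 was named outside that rule, and more input genes were named by p than planned. The members and lists were chosen with earlier results of these data known. Other normalisations, floors, filters, priors, array weights, the replicate block and left-out arrays were tried as alternatives.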

Additional observations from a re-analysis of the deposited data

How the results depend on the processing

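Over 20 alternatives, 179 values of the 9 clock gene probes gave no adjusted p under 0.05 (limma, smallest 0.440, for Per1 without OPP replicate 1), and Arntl, Clock, Per1, Per2 and Dbp kept their sign in all of them, with log2 changes of 0.054 to 0.17, -0.13 to -0.0011, 0.15 to 0.37, 0.047 to 0.19 and -0.28 to -0.12. Arntl and Clock came nearest to 0 with the replicate block and without control replicate 4. The sign of 13 values, all of Cry2, Nr1d1 and Nr1d2, turned. Without OPP replicate 3 and control replicate 1 together, the log2 change was -0.02 for Cry2 and -0.06 for the second Nr1d2 probe. With array weights it was 0.000895 for Nr1d1 and -0.0023 for the second Nr1d2 probe. Leaving out single arrays moved Cry2 from -0.10 to 0.13, Nr1d1 from -0.38 to 0.071, the first Nr1d2 probe from -0.019 to 0.36 and the second from -0.12 to 0.11. The r of Cry2 and Nr1d2 was -0.042 without the 2 arrays farthest from the median.

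Replicate numbers 1 to 3 are shared by the groups, but same-numbered arrays did not deviate together (correlations of their deviations -0.275, 0.0778 and -0.165). The labels do not say whether the numbers pair the samples, and these few correlations cannot exclude it. With the replicate block 692 probes had an unadjusted p under 0.05, against 839 on the same 6 arrays without it, and no clock gene did in either. With the groups balanced over those replicates the block cannot move a log2 change, and the second Nr1d2 probe was at -0.017 either way. The fit without the block was added after seeing the data. It uses the same arrays as the fit without control replicate 4 and gave the same values, so that fit is counted under both names among the 20 alternatives.

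Single arrays decided the counts. Clock gene probes at an unadjusted p under 0.05 numbered 0 to 1 when 1 array was left out (Per1 without OPP replicate 1). Other pathway genes numbered 0 to 2 higher in the same way, with 2 without control replicate 2 and 0 without OPP replicate 1 or 2 or control replicate 1, 3 or 4, and 0 to 1 lower, with 0 without OPP replicate 3 or control replicate 2, 3 or 4. They numbered 0 higher without OPP replicate 3 and control replicate 1 together, and 0 lower with quantile normalisation. Pairs of clock genes at an unadjusted p under 0.05 numbered 2 with quantile normalisation, 2 with median scaling, 0 with a floor of 50 and 1 to 2 without 1 array (2 without OPP replicate 2 or control replicate 3). When 1 array was left out, Arntl and Nr1d1 stayed under 0.05 only without OPP replicate 2, and without any other array the pairs counted were different ones. With all arrays, the pair was also under 0.05 with quantile normalisation, median scaling and a floor of 20 (exact permutation p = 0.0335, 0.0224 and 0.0421). Pairs past the adjusted threshold numbered 0 to 1 (Clock and Dbp without control replicate 3). The cause of these changes was not tested. With Nr1d1 close to the noise limit and 6 probes below it, signal over background limits what can be said of Per3, Cry1 and Nr1d1.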
